A study of Mus musculus with 13 samples.

Results

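The genes described here build, branch, cap, bundle and cut the actin filaments on which microglia, the resident macrophages of the brain, extend and retract their processes. They were chosen as a list of 40 gene symbols from the actin assembly machinery and the GTPase pathway that steers it. Of these, 39 were among the 14496 gene symbols used, and Diaph1 was not analysed here. RNA was measured by sequencing in 13 microglia samples, 7 of them from mice put through repeated social defeat (RSD), in which an aggressor overpowers them, and 6 from controls (CON). All were adult C57BL/6 mice, 2 months old. The RSD animals had gone through 6 cycles of defeat and their RNA was taken 24 days after the last one; the labels give no further treatment for the controls. Cells were sorted as CD11b+/CD45int. Since the labels do not tie each sample to a separate animal, p-values measure the spread between these samples. The comparison asks whether transcripts of the motility machinery still differed that long after the stress.

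Actin monomers add to the fast-growing ends of filaments. Profilin delivers them, thymosin beta 4 holds a reserve, and cofilin cuts old filaments to return monomers to the pool. The Arp2/3 complex starts a new branch on the side of a filament once a Wiskott-Aldrich family protein has activated it, capping proteins stop growth, and coronins help to take branches apart. The GTPases of the Rac, Cdc42 and RhoA type choose between flat protrusions, thin protrusions and contraction. In microglia the same machinery drives the surveying motion of the processes, phagocytic cups and migration, and Aif1, better known as Iba1, is the actin-bundling protein used to stain these cells. Actin monomers also control transcription: a falling monomer pool releases the cofactor MRTF, which joins serum response factor (SRF) on CArG boxes in promoters of cytoskeletal genes.

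Because SRF is the route by which actin state feeds back on actin genes, the promoter windows of the members were searched for its site. RefSeq windows of 250 bases before to 50 bases after a gene's start (GRCm38.p6) were found for 32 members; Actb, Nckap1l, Cyfip1, Coro1b, Rac1, Rac2 and Rock1 were not searched. The CArG box, which is CC, then 6 bases that are each A or T, then GG, reads alike on both strands. It occurred in 2 of the 32 members, Actg1 and Arpc4, against 1.81% of the 27025 genes with a window. Among the other actin genes listed for this work it occurred in 7 of 141, Myl6, Myo1e, Rnd3, Srf, Tiam1, Vcl and Vil1. The 2 member sites are shown first and those of Myl6, Vcl and Srf itself follow for comparison. Capitals mark each box, of which the Srf line holds 2, lower case the flanks, and each line reads 5′ to 3′ on the gene's strand.
Actg1, chr11:120348551-120348610, minus strand: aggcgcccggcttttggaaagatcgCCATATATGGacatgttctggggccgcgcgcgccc
Arpc4, chr6:113377863-113377897, plus strand: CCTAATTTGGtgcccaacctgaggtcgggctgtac
Myl6, chr10:128493025-128493084, minus strand: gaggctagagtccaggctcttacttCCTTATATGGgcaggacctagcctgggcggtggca
Vcl, chr14:20929148-20929205, plus strand: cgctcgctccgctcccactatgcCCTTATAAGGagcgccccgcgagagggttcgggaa
Srf, chr17:46556210-46556269, minus strand: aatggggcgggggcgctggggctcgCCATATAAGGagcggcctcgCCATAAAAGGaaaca
The Actg1 box begins 90 bases before the start and the Srf boxes 82 and 62 bases before it, while that of Arpc4 lies at the outer edge of its window, 250 bases before the start. The motif GAGGAAGT, a strong site for the myeloid factor PU.1, was found on either strand in 1 of the 32 members, Arpc1b, against 3.69% of all genes with a window. Among the other listed actin genes 8 of 141 held that motif (Arhgap25, Elk4, Elmo1, Fgd2, Fgd3, Fmnl1, Rhog and Vav1). The motif was searched in addition to the planned CArG box. These matches describe letters in a window and do not show binding.

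The libraries held 9.76 to 12.3 M reads, and the members together took 1.94% to 2.4% of them. Even Ezr, the scarcest member, had at least 33 reads in each library. A pair of libraries stood apart over all genes: the median Spearman correlation with the other libraries was 0.942 for CON 18 and 0.968 for RSD 8, where the rest had 0.989 to 0.992. All 8 microglia markers (such as P2ry12 and Sall1) were present in every library, and their summed level was 275739 to 293486 normalized reads in RSD and 180295 to 295382 in CON, with CON 18 at the low end. The markers of macrophages at the brain's borders (Mrc1, Pf4, Ms4a7 and others, 6 of 8 in the table, 2 of them listed at 0 in at least 1 library) summed to 14729.6 in CON 18. Their sum was 290.1 to 444 in RSD libraries and at most 329 among the remaining controls. Neutrophil markers (5 of 8, 3 of them listed at 0 in at least 1 library) summed to 21.1 to 998 in RSD and 11.6 to 569 in CON. The astrocyte list reached 1632, and those of monocytes, lymphocytes, neurons, oligodendrocytes, endothelial, mural and erythroid cells reached at most 1003. Libraries also differed in how their deviation from the median followed the GC content of a transcript: the Spearman correlation over genes was -0.728 in RSD 8 and -0.566 in RSD 2, and -0.090 to 0.408 in the others. In sorted bulk RNA, fewer cells of a type and less RNA per cell cannot be told apart.

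Over all 13 libraries together, the levels of every member in RSD and CON overlapped. On the log2(normalized reads + 1) scale 17 members had a positive and 22 a negative difference of RSD minus CON. Their median was -0.0029, where the median over all 12484 genes tested was 0.0056 and 51.3% of genes were positive. No member, and no gene at all, passed an adjusted p of 0.05 in limma with Benjamini-Hochberg adjustment (smallest adjusted p 0.821). Only 1 of the 39 members, Arpc1a on the lower side, stood under an unadjusted 0.05, against 4.00% of all genes. edgeR had 0 members under that level (against 4.81% of genes) and DESeq2 1 (against 4.67%). In both, 0 members passed after adjustment, where edgeR called no gene and DESeq2 0.0162% of genes. With each library's trend along transcript GC content removed, 3 members were under it in limma (Arpc1a, Arpc5 and Rhob, against 4.36%). Without CON 18 they were 3 as well (Actb, Arpc1a and Capzb, against 4.94%). Groups did not overlap for 0 members, against 0.0641% of genes. The members had a median standard error of 0.088 against 0.13 over all genes tested, a comparison that was not matched for level. Leaving aside Ezr and Fscn1, whose intervals were the widest, the 95% intervals of the fold difference of the other 37 members all lay between 0.753 and 1.33.

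**Figure D1:**
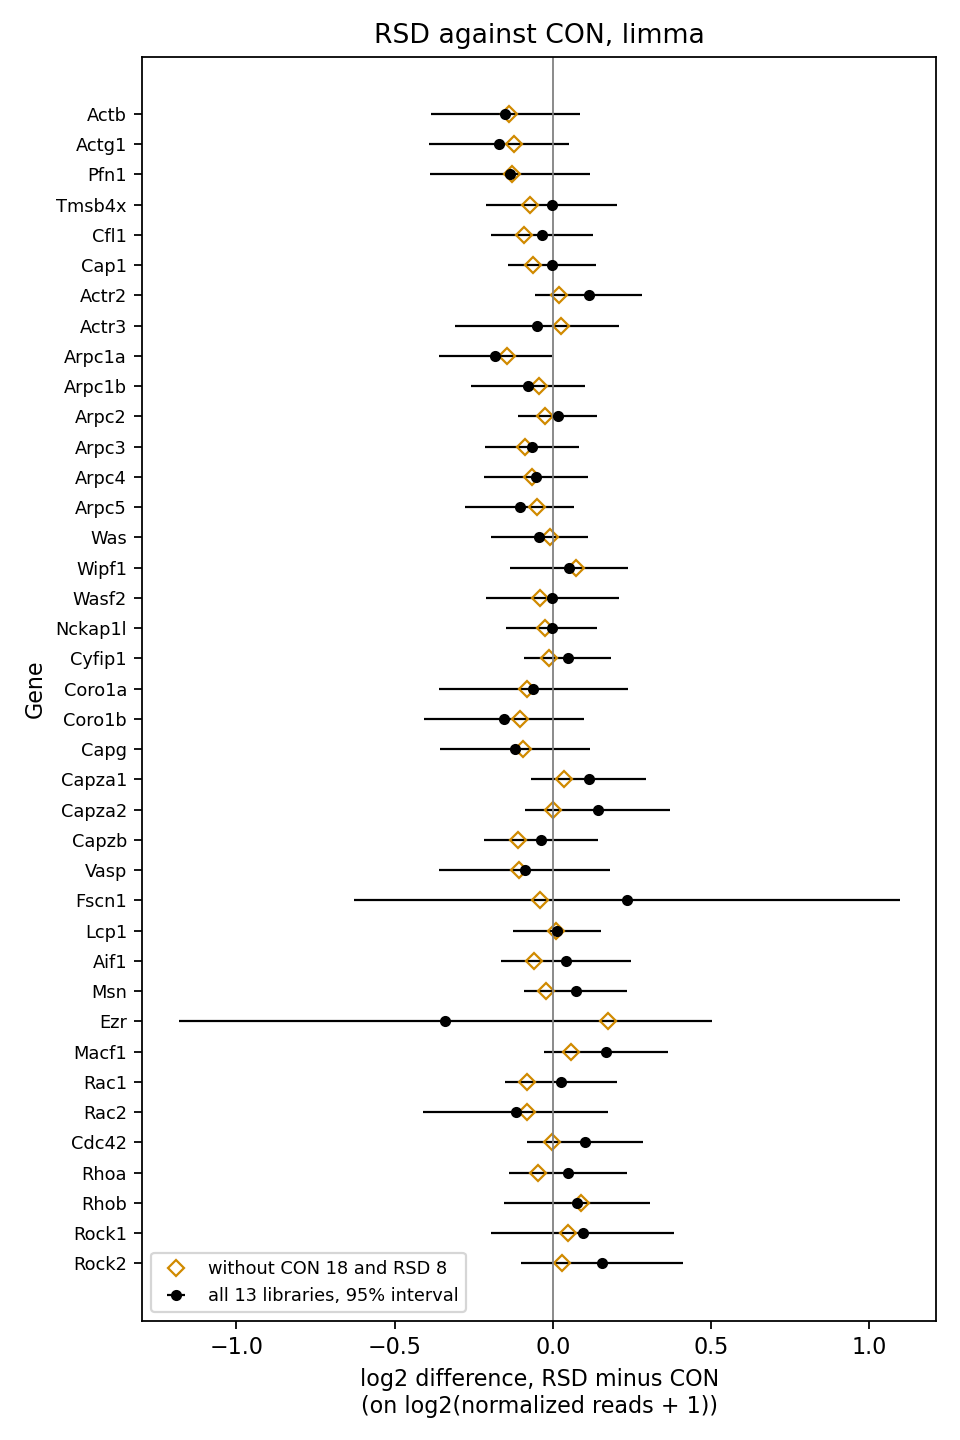
Log2 difference of RSD minus CON for each of the 39 members, from limma on log2(normalized reads + 1): black points with 95% intervals for all 13 libraries, open diamonds without CON 18 and RSD 8. All intervals but that of Arpc1a reach 0, and those of Fscn1 and Ezr are the widest.

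The monomer side of the pathway had the most uniform sign, with 0 of 6 members positive and a median of -0.085. For Actb, cytoplasmic beta actin and the main actin of the cell (chromosome 5, 142903115 to 142906754, GRCm38), RSD libraries held 25870.0 to 41264 normalized reads (median 37389) and CON libraries 31617 to 44564 (median 41829.7). RSD 8 was the lowest library and CON 18 the next, the 3 highest were CON 4, 5 and 1, and the groups overlapped, at a log2 difference of -0.15 ± 0.11 (SE). Actg1, which encodes the near-identical gamma actin (chromosome 11, 120345690 to 120348542), had 3723 to 5615 normalized reads in RSD (median 5039.7) and 4314 to 6285 in CON (median 5614). Again RSD 8 was lowest, CON 1, 4 and 5 held the 3 highest values, and the difference was -0.17 ± 0.10. Beta and gamma actin transcripts share long stretches of coding sequence and have processed copies in the genome, and how the authors' counting divided such reads is not given in the sources used here. Pfn1, profilin 1, the carrier that feeds monomers to growing ends, ran at 878 to 1473 normalized reads in RSD (median 1336) and 1046 to 1633 in CON (median 1431). It too was lowest in RSD 8 and CON 18 and highest in CON 4 (-0.14 ± 0.12).

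Cofilin, profilin's counterpart at the old end of the filament, varied less between libraries. Cfl1 had 2047 to 2407 normalized reads in RSD (median 2206) and 1822 to 2488 in CON (median 2368), with CON 18 lowest, and its difference was -0.034 ± 0.076. Its gene body shares 2967 bases with that of Snx32 on the other strand. Overlaps here and below run from gene start to gene end, introns included, and their exonic part was not measured. Without strand, reads from exons that overlap in such a pair cannot be told apart. Tmsb4x (thymosin beta 4, the monomer store; -0.0029 ± 0.098) and Cap1 (a cyclase-associated protein that recharges monomers with ATP; -0.0023 ± 0.066) differed by far less than their standard errors. Tmsb4x was nonetheless among the more variable, with RSD 8 and RSD 2 highest at 21865 and 20677 normalized reads and the other 11 libraries at 14620.0 to 18686.

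Of the 8 subunit genes of the Arp2/3 complex, 2 were positive and 6 negative, with a median of -0.059. Arpc1a, one of a pair of alternative forms of the ARPC1 subunit (chromosome 5, 145083830 to 145108761), had 250.1 to 347 normalized reads in RSD (median 307) and 322 to 375 in CON (median 349). RSD 8 held its lowest value, RSD 13, 12 and 2 came next, CON 17 and CON 1 were highest, and the groups overlapped. Its difference was -0.18 ± 0.085, the smallest p of any member before adjustment (limma adjusted p = 0.821). It overlaps Kpna7 on the other strand by 201 bases. The other form, Arpc1b, was the more abundant per length and stood at -0.077 ± 0.085; it shares 1937 bases with Pdap1 on the other strand.

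Actr2, which encodes ARP2, one of the pair of actin-like subunits that make the first step of the new branch, had 4579.8 to 5922 normalized reads in RSD (median 4881) and 3852 to 5015 in CON (median 4747). RSD 8 was highest and CON 18 lowest, and the difference was 0.11 ± 0.08. Its partner Actr3 (ARP3) went the other way in CON 18, which held 4158 normalized reads of it, above every other library (2244 to 3204), so its pooled difference was -0.05 ± 0.12. Arpc5, the smallest subunit, had 766 to 873 normalized reads in RSD (median 819) and 769 to 1118 in CON (median 862). CON 18 stood above all other libraries here too, RSD 10 and 12 were lowest, and the difference was -0.10 ± 0.081. The structural subunits Arpc2 (0.015 ± 0.059), Arpc3 (-0.066 ± 0.07) and Arpc4 (-0.053 ± 0.078) lay within 1 standard error of 0. Arpc4 shares 1189 bases with Ttll3 on its own strand.

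Activators of the Arp2/3 complex had a median difference of -0.00078 over 5 genes, 2 positive and 3 negative. Was, the haematopoietic Wiskott-Aldrich protein that acts below Cdc42, had 533 to 714 normalized reads in RSD (median 640.0) and 632 to 689 in CON (median 654). Only RSD 8 lay clearly below the rest, and the difference was -0.043 ± 0.072. Wipf1, the partner that stabilizes it, had 1624 to 2153 normalized reads in RSD (median 1749) and 1575 to 2181 in CON (median 1658). CON 18 and RSD 8 were its 2 highest libraries, one from each group, at a difference of 0.05 ± 0.088. In the WAVE complex, which works below Rac, Cyfip1 had 12091 to 14258 normalized reads in RSD (median 12569.8) and 11016 to 13158 in CON (median 12477). Its lowest library was CON 18 and its highest RSD 8, and the difference was 0.047 ± 0.065; it shares 1316 bases with Nipa2 on the other strand. Wasf2, the WAVE2 subunit, and Nckap1l, the blood-cell form of a WAVE scaffold, differed by -0.00078 ± 0.099 and -0.0036 ± 0.068.

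Coronins and capping proteins end or unmake filament growth, and 2 of their 6 genes were positive (median -0.049). Coro1a, the leukocyte coronin, had 1398 to 2409.7 normalized reads in RSD (median 2139.6) and 1453 to 2714 in CON (median 2204). CON 18 and RSD 8 lay far below the others, which ran from 1996 to 2714, and the difference was -0.061 ± 0.14. Coro1b, the coronin that removes Arp2/3 branches at the leading edge (chromosome 19, 4148619 to 4154035), had 667 to 1127 normalized reads in RSD (median 1079.6) and 945 to 1268 in CON (median 1087). RSD 8 was lowest, CON 1, 4 and 5 were highest, and the difference was -0.15 ± 0.12. It shares 432 bases with Ptprcap on its own strand. Capg, a macrophage capping protein of the gelsolin family, was scarce, with 69.2 to 94.1 normalized reads in RSD (median 87.9) and 83.2 to 106 in CON (median 89.4). RSD 8 was lowest and CON 1 highest, and the groups overlapped (-0.12 ± 0.11).

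The alpha subunits of the barbed-end capping protein had the opposite sign from its beta subunit, though all 95% intervals reached 0. Capza1 had 2294 to 3374 normalized reads in RSD (median 2539) and 2269 to 2595 in CON (median 2466), with RSD 8, 2 and 7 as its 3 highest libraries, and a difference of 0.11 ± 0.085. Capza2 had 5784 to 8818 normalized reads in RSD (median 5864) and 4645 to 6590.5 in CON (median 6043), with RSD 8 highest, RSD 2 second and CON 18 lowest (0.14 ± 0.11). Capzb, the beta subunit, was lowest in CON 18 and stood at -0.038 ± 0.085. Without CON 18 and RSD 8 the alpha subunits were at 0.035 ± 0.059 and 0.0015 ± 0.058 and the beta subunit at -0.11 ± 0.05. With all libraries and each library's GC trend removed they were at 0.037 ± 0.05, 0.012 ± 0.076 and -0.0039 ± 0.071.

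Among elongation and bundling genes, 1 library moved Fscn1 widely. Fscn1, fascin, which packs filaments into thin protrusions (chromosome 5, 142960343 to 142973185), had 1892 to 4222 normalized reads in RSD (median 3800.0) and 686 to 4105 in CON (median 3880.2). The value of CON 18 was 17.7% of the median of the other libraries, while the other controls ran from 3521 to 4105; RSD 8 was second lowest. With CON 18 its difference was 0.23 ± 0.40, without it -0.18 ± 0.16, and without RSD 8 as well -0.04 ± 0.075. Vasp, which protects growing ends from capping, had 718 to 1159 normalized reads in RSD (median 1111) and 758 to 1323 in CON (median 1123). RSD 8 and CON 18 were again its lowest libraries, and the difference was -0.089 ± 0.13. Aif1 (Iba1) had 1259 to 1880.3 normalized reads in RSD (median 1439) and 1238 to 1608 in CON (median 1452). RSD 8 was highest and the CON values lay inside the RSD range except for the lowest, CON 18 (0.042 ± 0.097). Lcp1, the leukocyte bundling protein L-plastin, stood at 0.013 ± 0.066.

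Links of filaments to the membrane and to microtubules gave the other extreme of CON 18. Ezr, ezrin, a membrane linker at home in epithelia (chromosome 17, 6738041 to 6782784), had 35.1 to 58.2 normalized reads in RSD (median 52.9) and 34.1 to 286 in CON (median 45.4). CON 18 stood at 5.66 times the median of the other libraries, and its value carried the sign of the difference: -0.34 ± 0.39 with it and 0.098 ± 0.20 without it. Msn, moesin, the linker that leukocytes use most, had 4947 to 5736 normalized reads in RSD (median 5060.2) and 3866 to 5407 in CON (median 5021). CON 18 was lowest, RSD 8 highest, and the other libraries lay within 4947 to 5407, at a difference of 0.072 ± 0.077. Macf1, a giant crosslinker of actin and microtubules (chromosome 4, 123349633 to 123684360), had 59151 to 84795 normalized reads in RSD (median 61948) and 49076 to 65219 in CON (median 57417). RSD 8 was far above the rest and CON 18 lowest, and the difference was 0.17 ± 0.093 (limma adjusted p = 0.821), or 0.057 ± 0.046 without both.

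The GTPases and their kinases had the most positive signs, 6 of 7, with a median of 0.077; without CON 18 and RSD 8 the count was 3 of 7 and the median -0.00087. Rac2, the blood-cell Rac (chromosome 15, 78559167 to 78572783), was the negative one, with 397 to 739 normalized reads in RSD (median 661) and 526 to 776 in CON (median 718). RSD 8 was lowest, CON 18 second, CON 1, 4 and 5 highest, and the difference was -0.12 ± 0.14. Rac1, the ubiquitous form, stood at 0.026 ± 0.084 and shares 2309 bases with Daglb on the other strand. Cdc42, which starts thin protrusions, had 4818 to 6894 normalized reads in RSD (median 5214) and 4305 to 5519.6 in CON (median 5028). RSD 8 was highest, CON 18 lowest, and the difference was 0.10 ± 0.086. Rhoa, the main activator of contraction, had 2909 to 3598 normalized reads in RSD (median 3335) and 2478 to 3643 in CON (median 3381). CON 18 lay far below the rest and RSD 7 second lowest (0.048 ± 0.088).

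Rhob, an immediate-early GTPase gene of endosomes, had 20311 to 32106 normalized reads in RSD (median 27851) and 21112 to 31139 in CON (median 26737). Here RSD 8, CON 18 and CON 1 were lowest, RSD 11 and CON 19 highest, and the difference was 0.077 ± 0.11. The kinases Rock1 and Rock2, which turn on myosin below RhoA, were highest in RSD 8. Rock2 (chromosome 12, 16894895 to 16987823) had 5258 to 9272 normalized reads in RSD (median 5569.6) and 4839 to 6392 in CON (median 5229.5); RSD 8 held 1.69 times the median of the other libraries and CON 17 came next. Its difference was 0.16 ± 0.12, and that of Rock1 was 0.095 ± 0.14. Without CON 18 and RSD 8 these were 0.029 ± 0.066 and 0.047 ± 0.073.

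**Figure D2:**
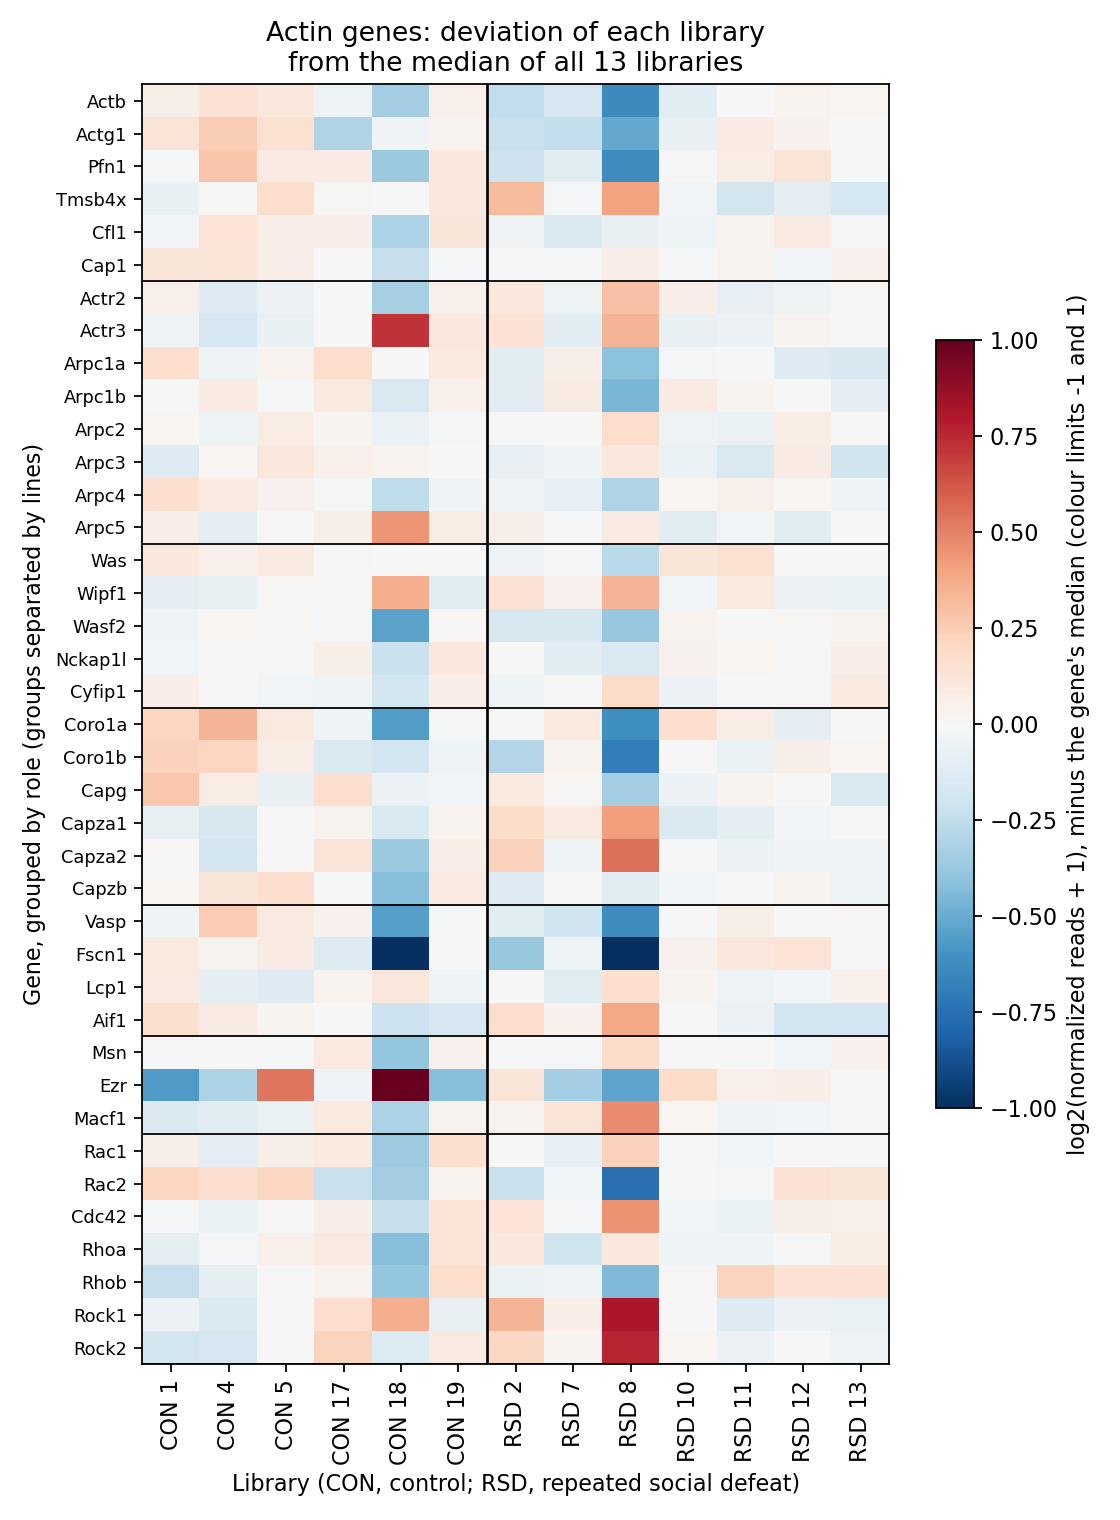
Deviation of each library from the gene's median over all 13 libraries, on log2(normalized reads + 1), with members grouped by role (rows) and libraries by group (columns). The columns of RSD 8 and CON 18 hold nearly all of the strong colours, and the fainter red of CON 1, 4 and 5 against blue in RSD 2 marks Actb, Actg1 and Rac2.

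The members' largest deviations lay in RSD 8 and CON 18. RSD 8 was more than 1.3-fold off the median of all libraries for 8 members above and 13 below, and CON 18 for 3 above and 8 below; each of the other 11 libraries was so for at most 1 of the 39. The shares were 53.8% of members in RSD 8, where 48.3% of all genes were as far off, and 28.2% in CON 18, against 39.7%. Among genes with a mean over 100 normalized reads, as most members have, the shares were 46.3% in RSD 8 and 31.1% in CON 18. The lowest library of a member was CON 18 for 15 and RSD 8 for 13, and the highest was RSD 8 for 14. RSD 8 was high for Rock1, Rock2, Capza2, Macf1, Cdc42 and Capza1, and low for Fscn1, Rac2, Coro1b, Pfn1, Coro1a, Actb and Vasp. In CON 18, Fscn1, Coro1a, Vasp and Wasf2 were low and Ezr, Actr3, Arpc5, Rock1 and Wipf1 high. The border macrophage markers were 49.9-fold and the microglia markers 63.1% of the median of the others in this library; their part in its actin values was not tested.

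Without CON 18 and RSD 8, 11 members were positive and 28 negative, at a median of -0.044, where all genes had a median of 0.00083 and 50.2% of them were positive. In limma no gene passed after adjustment, member or not. Actb (-0.14 ± 0.051) and Capzb (-0.11 ± 0.05) were the members under an unadjusted 0.05. That is 2 of 39 members against 4.89% of all genes. Without these libraries Actb ran from 34026 to 41264 in RSD and from 39023 to 44564 in CON, still overlapping. All 6 monomer-side genes remained negative (-0.14 to -0.061), but this sign was not shared by all settings. With all libraries and the GC trend removed, 1 of the 6 was positive and the median was -0.021. In the libraries numbered 1 to 8 alone 1 was positive (median -0.28), and in those numbered 10 to 19 there were 5 (median 0.096).

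The sample titles carry numbers in 2 ranges, 1 to 8 (RSD 2, 7 and 8; CON 1, 4 and 5) and 10 to 19 (RSD 10 to 13; CON 17 to 19), which the labels do not name as a batch. The members' differences were not alike in them. In numbers 1 to 8, 13 of 39 members stood under an unadjusted limma p of 0.05, where 22.2% of all genes did. After adjustment in limma no gene passed, member or not (smallest member adjusted p = 0.204). On the lower side were 9 (Actb, Actg1, Pfn1, Wasf2, Coro1a, Coro1b, Vasp, Fscn1 and Rac2; background 10.2%), and on the higher side 4 (Capza1, Macf1, Rock1 and Rock2; background 12.0%). All 3 RSD libraries lay below all 3 CON libraries for 14 members (background 14.3%) and above them for 5 (background 16.2%). In numbers 10 to 19 only Arpc5 (lower) and Rac2 (higher) were under an unadjusted 0.05, 2 of 39 against 5.43% of genes, and 27 members were positive, where 51.2% of genes were. By direction the background was 2.44% for lower and 2.99% for higher. The RSD libraries of this range all lay below its CON libraries for 2 members, Tmsb4x and Arpc5, where 530 of 12484 genes did so. They all lay above for 0 members, where 538 genes did so.

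Actb held 41939.8, 44564 and 43279 in CON 1, 4 and 5, and 34026, 35981 and 25870.0 in RSD 2, 7 and 8, in normalized reads. Every RSD library of that range lay below every CON library, at -0.45 ± 0.13. In the higher range it held 39023, 31617 and 41719.5 in CON 17, 18 and 19, and 37389, 40331, 41264 and 40948 in RSD 10 to 13, with the groups overlapping at 0.10 ± 0.10. Actg1 held 5805, 6285 and 5900.0 in CON 1, 4 and 5, and 4539.5, 4478 and 3723 in RSD 2, 7 and 8. The gap between the groups was wider than the spread inside either, at -0.50 ± 0.11. Among the higher numbers Actg1 held 4314, 5174 and 5424 in CON 17, 18 and 19, and 5039.7, 5615, 5459 and 5305 in RSD 10 to 13, where CON 17 alone was low and the difference was 0.11 ± 0.089.

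Rac2 held 776, 751 and 769.5 in CON 1, 4 and 5, and 572, 656 and 397 in RSD 2, 7 and 8. The 3 controls were close to each other, all above RSD, at -0.53 ± 0.17. Its values were 572, 526 and 685 in CON 17, 18 and 19, and 668, 661, 739 and 726 in RSD 10 to 13, with RSD on the higher side but CON 19 inside its range (0.24 ± 0.10). Coro1b held 1268, 1254 and 1135 in CON 1, 4 and 5, and 882, 1109 and 667 in RSD 2, 7 and 8, a difference of -0.49 ± 0.16. RSD 7 lay just under the lowest control and RSD 8 far under it. In the higher range it held 978, 945 and 1040.3 in CON 17, 18 and 19, and 1079.6, 1029, 1127 and 1097 in RSD 10 to 13, a difference of 0.13 ± 0.067. Macf1 held 55339, 56448 and 58386 in CON 1, 4 and 5, and 62434, 66735 and 84795 in RSD 2, 7 and 8 on the higher side (0.32 ± 0.13), and 65219, 49076 and 62439 in CON 17, 18 and 19, and 61948, 59151, 60021 and 61027 in RSD 10 to 13 (0.05 ± 0.11). Rock2 held 4839, 4889 and 5483 in CON 1, 4 and 5, and 6320.0, 5576 and 9272 in RSD 2, 7 and 8 (0.44 ± 0.17), where RSD 7 exceeded CON 5 by little, and 6392, 4976 and 5849 in CON 17, 18 and 19, and 5569.6, 5258, 5464 and 5303 in RSD 10 to 13 (-0.081 ± 0.088).

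**Figure D3:**
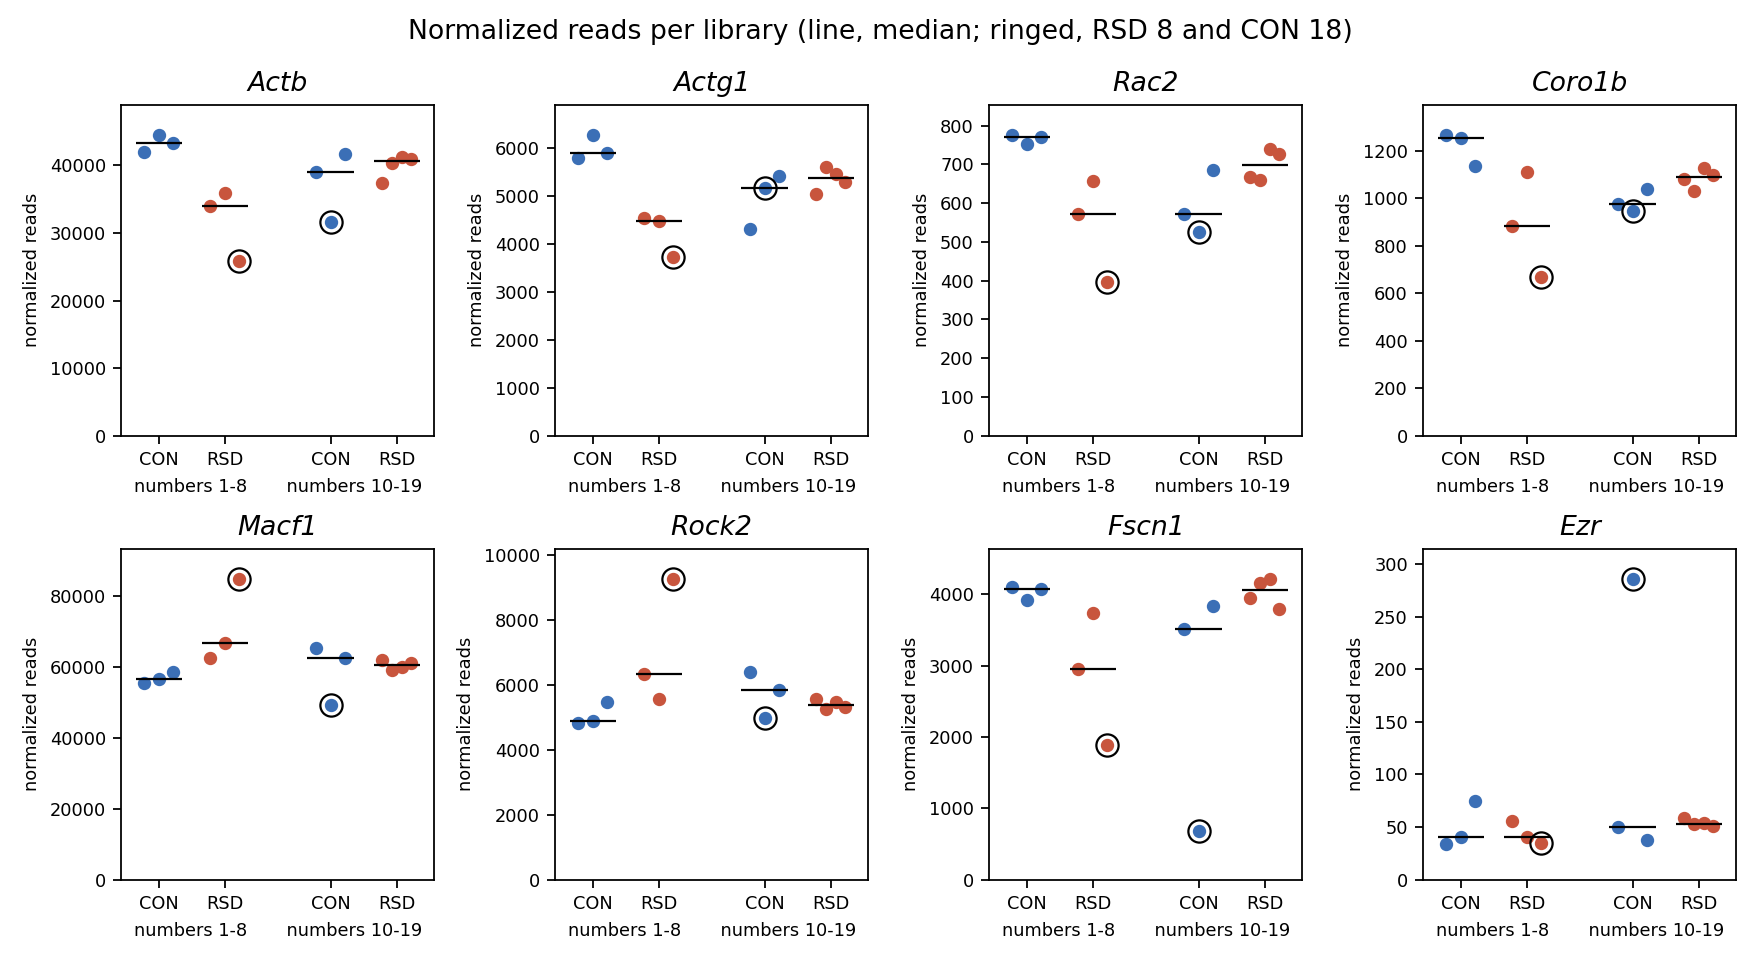
Normalized reads of 8 members in each library, split by group and by the number in the sample title; lines mark medians and rings mark RSD 8 and CON 18. For Actb, Actg1, Rac2 and Coro1b the RSD points of numbers 1 to 8 lie below the CON points, while for numbers 10 to 19 the points overlap; CON 18 stands apart for Fscn1 and Ezr.

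Without RSD 8, the library with the strongest GC trend, in a setting added after the data were seen, numbers 1 to 8 held 2 RSD against 3 CON libraries, and Actb (-0.31 ± 0.071, limma adjusted p = 0.0418) and Actg1 (-0.41 ± 0.075, limma adjusted p = 0.0153) passed the threshold. They are 2 of 39 members, where 0.633% of all genes passed; 12 of 39 were under an unadjusted 0.05, against 18.0%. Without CON 18, likewise added, the higher range had 8 members under an unadjusted 0.05, against 9.53% of genes, and 0 after adjustment in limma, against 0.0881%. These 8 were Tmsb4x, Arpc1a, Capza2, Fscn1, Macf1, Rac1, Rhoa and Rock2; Fscn1 stood at 0.13 ± 0.052 and Macf1 at -0.076 ± 0.034. Neutrophil markers summed to 998, 646 and 771 in RSD 2, 7 and 8 and to 155, 569 and 462 in CON 1, 4 and 5, and to at most 127 in the higher range; their part was not tested.

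The difference between the ranges was tested as an interaction of group and range. With all libraries 15 members were under an unadjusted 0.05 in limma (background 21.7%). After adjustment 0 members passed, and 0 of all 12484 genes. Without CON 18 and RSD 8, a setting added after the data were seen, 9 members passed, where 3.69% of all genes did (unadjusted, 17 of 39 against 20.0%). Their differences of RSD minus CON were more positive in the higher range for Actg1 (0.56 ± 0.099), Rac2 (0.48 ± 0.12), Fscn1 (0.41 ± 0.10), Coro1b (0.40 ± 0.12) and Actb (0.29 ± 0.073). They were more negative for Rock2 (-0.41 ± 0.09), Rock1 (-0.38 ± 0.11), Capza1 (-0.31 ± 0.091) and Macf1 (-0.26 ± 0.066). With the GC trend removed and both libraries kept, no gene passed in limma, member or not (unadjusted, 8 of 39 members against 11.1%). Without both libraries 0 members passed, against 0.0889% of genes (unadjusted, 6 of 39 against 11.5%). The smallest member adjusted p there was 0.0598 in limma.

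GC content ordered the members in numbers 1 to 8. The members' transcripts spanned 36.1% (Capza2) to 60.6% GC (Fscn1), and the median of all genes tested was 49.5%. Of the 22 members above that median, 20 were lower in RSD in this range (median -0.20), where 79.8% of all genes above it were. Of the 17 below it, 1 was lower (median 0.16), where 22.3% of genes were. As a description over 39 members that share libraries, the Spearman correlation of the difference with GC content was -0.847 in numbers 1 to 8 (-0.697 over all genes), 0.584 in numbers 10 to 19 (0.227) and -0.553 with all libraries (-0.424).

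After the GC trend of each library was removed, the differences of 21 members in numbers 1 to 8 came closer to 0, those of 3 went farther from it and 15 turned sign. Actb stood at -0.38 ± 0.088, Actg1 at -0.36 ± 0.064, Rac2 at -0.38 ± 0.11 and Macf1 at 0.22 ± 0.075. Coro1b was at -0.18 ± 0.079, Coro1a at -0.047 ± 0.076, Pfn1 at -0.045 ± 0.078, Vasp at -0.073 ± 0.088, Rock1 at 0.16 ± 0.076 and Rock2 at 0.16 ± 0.083. In this setting 9 of 39 members were under an unadjusted limma p of 0.05, where 14.2% of genes were, and 0 passed after adjustment, against 0.00808% of genes; the smallest member adjusted p, for Actg1, was 0.0828. Those 9 were Actb, Actg1, Actr2, Coro1b, Rac2 and Rhoa on the lower side (background 6.64%) and Wipf1, Macf1 and Rhob on the higher (7.61%).

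**Figure D4:**
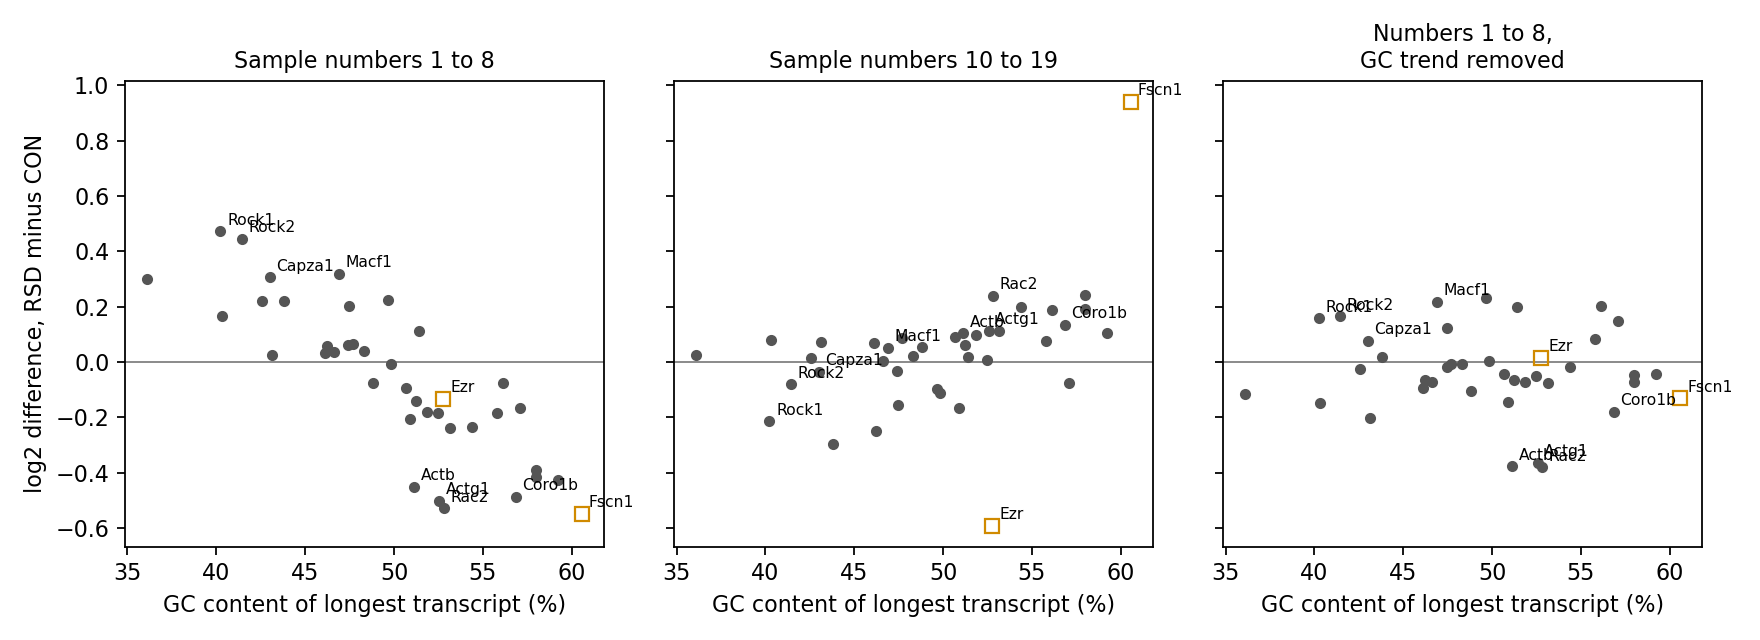
Log2 difference of RSD minus CON of the 39 members (vertical) against the GC content of the longest transcript in percent (horizontal), for numbers 1 to 8, for numbers 10 to 19, and for numbers 1 to 8 with each library's GC trend removed; squares mark Fscn1 and Ezr. The downward slope of the first panel is not seen in the third, where Actb, Actg1 and Rac2 lie below the other members.

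Across members, levels can be compared only per length of exon. Length here is that of all annotated exons of a gene merged (2679 bases for Actb, 1371 for Tmsb4x and 2349 for Rhob). It can exceed the length of the transcript present in the cells, so the order of genes with close levels depends on this choice. In normalized reads per kb, the median over 13 libraries was highest for Actb (15054; lowest to highest library 9657 to 16635), Tmsb4x (12099; 10664 to 15948) and Rhob (11737; 8647 to 13668), whose ranges overlapped. Then came a gap to Nckap1l (2629), Actg1 (1996), Macf1 (1943), Cdc42 (1699.9) and Fscn1 (1276), and among these the ranges of neighbours overlapped as well, except those of Cdc42 and Fscn1. On this length the GTPase Rhob stood beside beta actin and its monomer store, far above Rhoa (445). Within pairs, Rac1 (845) exceeded Rac2 (215), Arpc1b (292) exceeded Arpc1a (129.5), Rock2 (395) exceeded Rock1 (114) and Msn (798) exceeded Ezr (15.5), with ranges apart in each pair. Subunits of the Arp2/3 complex ran from 129.5 (Arpc1a) to 1126 (Arpc2) per kb. Capg (34.7) and Ezr were the scarcest. The coefficient of variation was 3.54% (Arpc2) to 113% (Ezr) over CON libraries and 2.63% (Cap1) to 26.5% (Rock1) over RSD libraries.

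**Figure D5:**
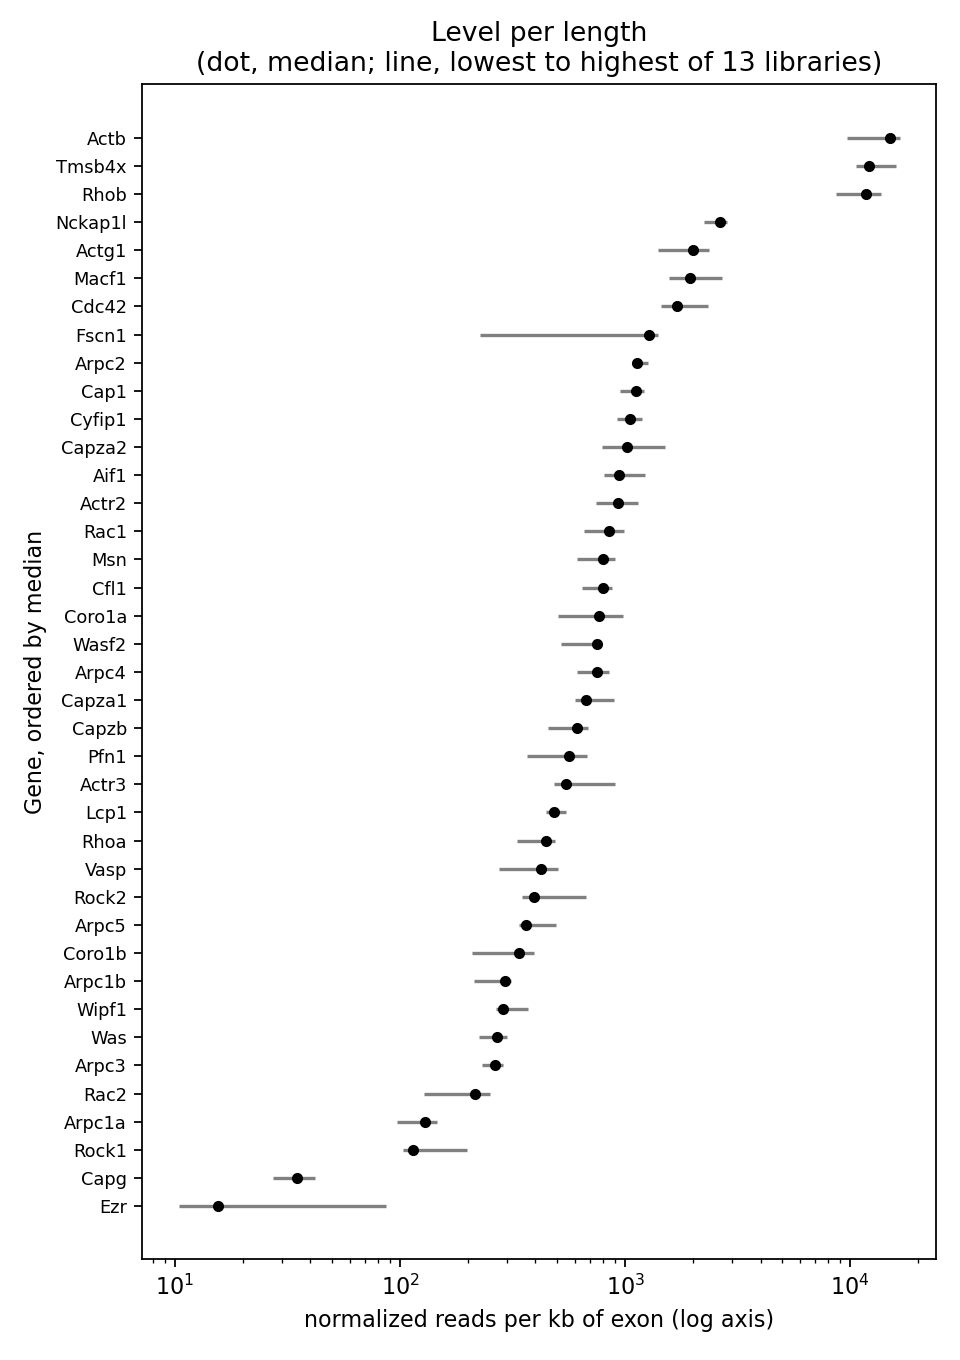
Normalized reads per kb of exon (log axis) of each member, ordered by the median over 13 libraries (dot); lines run from the lowest to the highest library. Actb, Tmsb4x and Rhob form the top, Capg and Ezr the bottom, and Fscn1 and Ezr have the longest lines.

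Other genes of actin dynamics were split nearly evenly between higher and lower. Of 196 listed, 166 were in the table and 154 were tested; 78 were positive and 76 negative, with a median of 0.0018. None passed after adjustment in limma, edgeR or DESeq2. In limma 4 were under an unadjusted 0.05 (2 higher, against 2.02% of genes, and 2 lower, against 1.98%). There were 7 in edgeR (against 4.81%) and 7 in DESeq2 (against 4.67%). Arhgap5, a GTPase-activating protein, had 12597 to 22272 normalized reads in RSD (median 13564) and 8709.8 to 13344 in CON (median 12759.6). RSD 8 was highest and CON 18 lowest, and the difference was 0.30 ± 0.13. Myh10, a nonmuscle myosin heavy chain, had 513 to 582 normalized reads in RSD (median 553) and 445 to 562 in CON (median 491), with the groups overlapping at 0.16 ± 0.073.

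On the lower side Coro1c, another type I coronin, had 661 to 791 normalized reads in RSD (median 752) and 776 to 998 in CON (median 802). CON 5 and CON 19 lay inside the RSD range and the other controls above it, and the difference was -0.19 ± 0.076. Ssh1, the phosphatase that switches cofilin on, had 279.9 to 444 normalized reads in RSD (median 396) and 393 to 619 in CON (median 433), with a difference of -0.26 ± 0.12. The next by p on the higher side were Ppp1cb, the catalytic subunit of myosin phosphatase (0.20 ± 0.10), Tmod3, a pointed-end cap (0.19 ± 0.10), and Myo9a, an unconventional myosin (0.18 ± 0.10). On the lower side they were Tagln2, a transgelin (-0.35 ± 0.18), Coro2a (-0.26 ± 0.13) and Mkl1, the table's symbol for the SRF cofactor MRTF-A (-0.21 ± 0.10).

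Of the genes named in any case, Srf had 150.0 to 328 normalized reads in RSD (median 272) and 264 to 312 in CON (median 272), lowest in RSD 8, and stood at -0.14 ± 0.14. The filament scaffold Flna (0.0034 ± 0.075), the myosin heavy chain Myh9 (-0.0012 ± 0.062), the adhesion linker Vcl (-0.049 ± 0.10) and the other thymosin Tmsb10 (-0.038 ± 0.17) were close to 0 against their errors. Gsn, the filament-cutting gelsolin, had 165 normalized reads in CON 18, while all other libraries ranged from 20.8 to 44.5, at a difference of -0.53 ± 0.36. Of 6 SRF and MRTF factor genes tested, 5 were negative with a median of -0.045. Of the 9 listed genes with a CArG box 8 were tested (all but Rnd3). Of these, 6 were negative and 2 positive, with a median of -0.06, where 51.3% of all genes tested were positive. All but Actg1 and Vil1 differed by less than their standard errors. Actg1 stood at -0.17 ± 0.10, Arpc4 at -0.053 ± 0.078 and Myl6 at -0.068 ± 0.09. Vil1 stood at -0.71 ± 0.45, Myo1e at 0.09 ± 0.093 and Tiam1 at 0.22 ± 0.32. In limma 0 of the 8 passed after adjustment, and no gene at all did.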

How the data were processed

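Microglia were enriched on Percoll, sorted on CD11b and CD45, RNA was taken with PicoPure and libraries made with Ovation SoLo and AnyDeplete, per the labels' protocols. The submitters' processing notes name STAR, the build mm10 and DESeq2; tool versions, the counter, its annotation and strand setting were not given in the sources used here. Values in the deposited table are a signal, reads divided by a size factor: 100% of them were whole multiples of 1 step per library within 0.01 reads, so whole reads were recovered. The design had assumed raw counts as a possibility and named limma for normalized values, which was used.

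The 22 symbols turned into dates were left out of 14518 rows. Genes were kept by filterByExpr on recovered reads (minimum count 10, total 15), leaving 12484 with all 39 members, and tested by limma 3.58.1 (trend, robust) on log2(value + 1), two-sided, Benjamini-Hochberg over all of them, threshold 0.05; fold changes on this scale understate those of low genes. The step was tested on simulated data. edgeR 4.0.16 (TMM), DESeq2 1.42.0, TMM scaling, pseudocounts 0.5 and 5, no filter, leave-one-out, number ranges and removal of each library's GC trend (lowess, span 0.3) were alternatives, in R 4.3.3. Lengths, GC and positions are from GENCODE M21 (GRCm38). Members, lists and tests were chosen with earlier results of these data known. Full values are given for the 3 members of smallest p per role and 10 fixed ones; of related genes, the 5 of smallest p per side with a mean of at least 100 normalized reads and 6 fixed ones.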

Additional observations from a re-analysis of the deposited data

Results flagged for a closer look

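A single library stood far from the rest of its group in 18 of the 78 groups examined, by Dixon's gap test at the 95% level. That is 23.1% of groups, against 17.8% over all genes tested; chance gives about 1 in 20. All 18 were in CON 18 or RSD 8, as were 89.3% of those over all genes. In normalized reads, CON 18 was far above the other controls for Actr3 (4158; others 2244 to 2711), Arpc5 (1118; others 769 to 868), Wipf1 (2181; others 1575 to 1713) and Ezr (286; others 34.1 to 74.7). It was far below them for Wasf2 (3243; others 4607 to 4767), Capzb (1499; others 2015 to 2258), Fscn1 (686; others 3521 to 4105) and Msn (3866; others 5008 to 5407). RSD 8 was far above the other RSD libraries for Capza2 (8818; others 5784 to 7053), Msn (5736; others 4947 to 5210.4), Macf1 (84795; others 59151 to 66735), Rac1 (4453; others 3585 to 3813), Cdc42 (6894; others 4818 to 5549), Rock1 (3602; others 1885 to 2607) and Rock2 (9272; others 5258 to 6320.0). It was far below them for Arpc1b (1089.7; others 1383 to 1584), Arpc4 (1418; others 1646 to 1808) and Coro1a (1398; others 1996 to 2409.7). Moesin (Msn) was set apart in both, in opposite directions.

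The difference of RSD minus CON itself differed between sample numbers 1 to 8 and 10 to 19 for 9 of the 39 members. This was with CON 18 and RSD 8 left out, a setting chosen after seeing the data, where 3.69% of all genes passed. The log2 difference of the differences (higher range minus lower, with its SE and limma adjusted p) was as follows: Actb (0.29 ± 0.073, 0.0258), Actg1 (0.56 ± 0.099, 0.00627), Coro1b (0.40 ± 0.12, 0.0468), Capza1 (-0.31 ± 0.091, 0.0493), Fscn1 (0.41 ± 0.10, 0.0282). For the other members it was Macf1 (-0.26 ± 0.066, 0.0271), Rac2 (0.48 ± 0.12, 0.0304), Rock1 (-0.38 ± 0.11, 0.0471) and Rock2 (-0.41 ± 0.09, 0.0125). With these libraries in the fit, no gene passed in limma, member or not, whether or not the GC trend was removed. With the GC trend removed and these libraries left out, 0 members passed, against 0.0889% of genes.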

How the results depend on the processing

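The count of members passing an adjusted p was 0 in limma with all libraries and under each of the 24 alternatives of that comparison, while DESeq2 called 2 genes, none of them a member. The count of 1 member under an unadjusted 0.05 was 0 in edgeR (all genes, 4.81%) and 0 with no filter (3.92%). It was 3 with the GC trend removed (4.36%) and 2 without CON 18 and RSD 8 (4.89%). In numbers 1 to 8 it was 13 (22.2%) and in numbers 10 to 19 it was 2 (5.43%). Leaving out each library gave 0 to 3 members, with 2.58% to 5.19% of all genes. The 3 were without CON 18, where 4.94% of all genes were under it. The 17 positive members became 11 without CON 18 and RSD 8 and 27 in numbers 10 to 19, and 16 to 21 with one library left out. The 4 related genes were 7 in edgeR (all genes, 4.81%) and 7 in DESeq2 (4.67%). They were 10 of 154 without both libraries (4.89%) and 47 in numbers 1 to 8 (22.2%). Leaving out each library gave 1 to 8 (1 without RSD 2, all genes 2.58%, and 8 without CON 18, 4.94%). Within numbers 1 to 8, 0 members passed an adjusted p (all genes, 0). Without RSD 8, a setting added after seeing the data, 2 did (Actb and Actg1, all genes 0.633%). In numbers 10 to 19 the unadjusted count of 2 was 8 without CON 18 (all genes, 9.53%). It was 1 with the GC trend removed (all genes, 570 of 12372). The interaction count of 0 was 9 without both libraries (all genes, 3.69%). In numbers 10 to 19, 20 members turned sign, 10 of them to beyond 1 standard error there (Actg1, Cap1, Arpc4, Was, Wasf2, Coro1a, Coro1b, Vasp, Rac2 and Rock1); Actg1 (0.11) and Coro1b (0.13) were beyond 1 standard error with all libraries too, and the cause was not tested. Over the 24 alternatives 33 of the 39 members changed sign at least once, and Actr2, Arpc1a, Arpc3, Capg, Capza2 and Macf1 did not; TMM scaling and the pseudocounts changed none. No paired analysis was possible because the labels name no pairing of RSD with CON samples. Depth was lowest for Ezr, with at least 33 reads in each library.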

Other observations

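Of the 154 related actin genes, 5 (3.25%) differed between the number ranges in limma without CON 18 and RSD 8, a setting added after the data were seen, a share below the 3.69% of all genes. With all libraries no gene passed, whether or not the GC trend was removed. With the GC trend removed and these libraries left out, 0 of the 154 passed, against 0.0889% of all genes. Abi3, a WAVE complex subunit of myeloid cells, was at 0.35 ± 0.10 (log2, higher range minus lower), the formin Fhod1 at 0.37 ± 0.095 and Elmo2, part of a Rac exchange factor, at 0.42 ± 0.11. The membrane linker Rdx, radixin, was at -0.46 ± 0.10 and Ppp1cb at -0.35 ± 0.094. The differences of RSD minus CON within each range include RSD 8 and CON 18, so they are not the parts of the values above. In numbers 1 to 8 they were -0.42 ± 0.16 for Abi3, -0.41 ± 0.16 for Fhod1 and 0.50 ± 0.15 for Rdx. In numbers 10 to 19 they were 0.35 ± 0.16, 0.095 ± 0.067 and -0.062 ± 0.091. The transcripts of these genes held 59.7%, 58.5% and 44.1% GC.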
